A study of Mus musculus with 63 samples.

Results

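The genes described here are 8 that astrocytes use for their everyday support of neurons: Aqp4, Gja1, Gjb6, Aldh1l1, S100b, Aldoc, Sox9 and Slc4a4. They were taken by symbol, and 8 of 8 were found among the 55291 gene symbols of each of 63 count tables. The libraries came from mouse entorhino-hippocampal slice cultures prepared at postnatal day 3 to 5 and grown for 18 days or more, from C57BL/6J wildtype (Synpo+/+) mice or from B6.129-Synpotm1Mndl/Dllr (Synpo-/-) mice, which lack synaptopodin, of either sex. For the regional transcriptome, the scalpel-cut dentate gyrus (DG) or CA3 area of 1 culture gave 1 library, either from non-lesioned control cultures or after entorhinal cortex lesion (ECL), a cut that severs the perforant path and partially denervates the hippocampus. The ECL libraries of the areas were taken 3 days after the cut per a figure legend of the study, a time the labels leave out. These 39 libraries were 4 control and 7 ECL libraries of Synpo+/+ DG, 7 and 4 of Synpo-/- DG, 2 and 3 of Synpo+/+ CA3, and 6 and 6 of Synpo-/- CA3. For the co-immunoprecipitation (coIP) with an antibody against synaptopodin, each lysate came from pooled whole cultures (6 per the labels and methods, 5 or 6 per a figure legend). Each lysate was sequenced as the precleared lysate (input) and as the material pulled down. This gave 5 input and 5 coIP libraries each from control and ECL Synpo+/+ cultures, and 2 and 2 from Synpo-/- cultures whose lesion state the labels do not give.

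Astrocytes take up glutamate and potassium, move water at their vessel-facing endfeet, pass metabolites to each other through gap junctions and supply neurons with lactate. After denervation of the dentate molecular layer they are known to enlarge and to make more intermediate filament protein. Aqp4 encodes the water channel of the endfeet, and Gja1 (connexin 43) and Gjb6 (connexin 30) form the astrocytic gap junctions. Aldh1l1 is a cytosolic enzyme of folate metabolism, Aldoc the brain aldolase of glycolysis, and S100b a calcium-binding protein that oligodendrocytes make as well. Sox9 is a transcription factor of glial identity and Slc4a4 the sodium bicarbonate cotransporter.

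Each of the 8 symbols stands for 1 protein-coding gene of GRCm38. Gja1 (ENSMUSG00000050953.10) lies at chr10:56377330-56402513 and S100b (ENSMUSG00000033208.7) at chr10:76253853-76261159. Aldoc (ENSMUSG00000017390.15) lies at chr11:78322968-78327781 and Sox9 (ENSMUSG00000000567.5) at chr11:112782224-112787760. Gjb6 (ENSMUSG00000040055.9) lies at chr14:57123303-57133611, Slc4a4 (ENSMUSG00000060961.16) at chr5:88886486-89239653, Aldh1l1 (ENSMUSG00000030088.15) at chr6:90486427-90600203 and the position of Aqp4 (ENSMUSG00000024411.11) is not printed. Gjb6 and Aqp4 are on the minus strand and the other 6 on the plus strand. Reads were counted over exons without strand. The 2 genes that share exon bases with a member, both at Aldh1l1, held at most 8 reads in any library, against at least 368 for Aldh1l1.

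Promoter sequence is shown for the connexin genes, which had the largest ECL differences in Synpo+/+ DG, and for the members with a searched motif just upstream of their start. The stretches end at the annotated start or before it and come from the RefSeq promoter windows of GRCm38.p6, where 6 of the 8 members had a window (Aqp4 and Sox9 had none). Searched on both strands were ACAATGG and ACAAAGG, which SOX factors bind, TTGGCA, a part of the nuclear factor I element, and TTCNNNGAA, the STAT element. No match overlapped another.
Gja1, chr10:56377050-56377299, plus strand: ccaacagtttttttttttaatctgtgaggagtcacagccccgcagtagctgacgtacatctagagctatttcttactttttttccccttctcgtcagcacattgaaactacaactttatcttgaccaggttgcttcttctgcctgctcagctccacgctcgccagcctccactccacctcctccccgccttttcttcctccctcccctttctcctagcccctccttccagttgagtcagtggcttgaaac
Gjb6, chr14:57133612-57133861, minus strand: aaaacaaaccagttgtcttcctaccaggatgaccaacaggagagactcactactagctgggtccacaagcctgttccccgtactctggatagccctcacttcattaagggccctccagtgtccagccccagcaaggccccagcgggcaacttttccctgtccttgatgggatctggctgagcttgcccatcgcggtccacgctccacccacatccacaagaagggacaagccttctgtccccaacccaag
S100b, chr10:76253586-76253835, plus strand: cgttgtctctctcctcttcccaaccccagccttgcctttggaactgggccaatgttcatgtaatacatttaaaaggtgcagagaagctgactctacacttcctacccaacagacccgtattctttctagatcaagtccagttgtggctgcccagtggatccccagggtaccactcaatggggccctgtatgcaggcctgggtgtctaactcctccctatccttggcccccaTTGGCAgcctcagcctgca
Aldoc, chr11:78322823-78322967, plus strand: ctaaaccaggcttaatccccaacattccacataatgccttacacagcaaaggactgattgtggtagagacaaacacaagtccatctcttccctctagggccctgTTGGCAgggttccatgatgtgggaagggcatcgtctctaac
Capitals mark TTGGCA. Counted from the RefSeq start of each window, it began 19 bases upstream for S100b and 146 bases upstream for Aldoc. These RefSeq starts are not the gene starts given above. TTGGCA was in 14.1% of the 32851 windows of all genes. TTCNNNGAA was at 2 places of a further Aldoc window, in a part not printed, and in 8.3% of all windows. ACAATGG and ACAAAGG were in none of the 8 member windows and in 3.66% and 5.88% of all windows. A match describes letters and not a bound site.

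Levels are given as CPM, the counts of a gene scaled to a common library size after TMM normalisation of library composition, separately for the regional and the coIP experiment. Regional libraries held 14055930 to 46043990 counts, and coIP and input libraries 11601154 to 53682143. Mean Slc1a2, the main astrocytic glutamate transporter, lay between 1297 and 1741 CPM in the 8 regional groups. The library labelled Synpo+/+ DG after ECL, replicate 5, went against its area label. Prox1, the granule cell transcription factor, was at 15.5 CPM there and at 169.8 to 216.8 CPM in the other 6 libraries of its group, and its 9 CA3 pyramidal cell markers summed to 2854 CPM, above the 1936 to 2667 CPM of Synpo+/+ CA3 after ECL. The ECL effects in Synpo+/+ DG, the DG against CA3 comparison after ECL, the interactions, the gene lists, the group means and the correlations are therefore also given without it. Synpo was at 19.1 to 38.4 CPM in Synpo+/+ and 30.5 to 69.3 CPM in Synpo-/- regional libraries. Synpo was thus not lower in the libraries labelled Synpo-/-. Counts over a whole gene are no check of this allele, so each genotype named here is that of the label.

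Per kilobase of exon, the median regional level was highest for Aldoc, at 259 CPM per kb. Sox9 (57.6 CPM per kb) and S100b (56.9) followed, then Aqp4 (32.0), Slc4a4 (31.3), Gja1 (27.1) and Gjb6 (24.3), with Aldh1l1 lowest at 5.64 CPM per kb. Over the 39 libraries the ranges of neighbours in this order overlapped, except that all Aldoc values (97.3 to 435) lay above and all Aldh1l1 values (4.30 to 11.8) below those of the other genes. In the 24 libraries of the coIP experiment Aldoc was again highest, at a median of 1541 CPM per kb, whereas Slc4a4 was lowest at 7.60 and Aldh1l1 stood at 18.4 CPM per kb. The experiments differ in RNA isolation, in read length and in the tissue taken, so these levels are given side by side and were not tested.

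The first comparison asks how ECL changed these genes in the denervated DG. In Synpo+/+ cultures 6 of the 8 rose, from 1.47-fold (S100b) to 2.14-fold (Gjb6), while 12.2% of all genes changed, 7.86% rising and 4.31% falling. In Synpo-/- cultures the same 6 rose, from 1.41-fold (S100b) to 1.93-fold (Gja1), while 8.53% of all genes changed, 5.17% rising and 3.36% falling. Sox9 missed the edgeR threshold in both genotypes, and Slc4a4 stayed close to its control level. Control and ECL libraries did not overlap for 7 of the 8 in each genotype. Of all genes 11.7% did not overlap in Synpo+/+ and 8.01% in Synpo-/- DG. With CPM scaled over each comparison alone, these were 6 and 5 members and 11.1% and 7.74% of all genes. This share was counted only for ECL against control in the regional libraries. The median log2 fold change of the 8 genes was 0.81 in Synpo+/+ and 0.70 in Synpo-/- DG, against -0.00 and 0.01 over all genes. In bulk tissue, more cells of a type and more RNA per cell cannot be told apart.

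Gjb6, a gap junction connexin, was at 53.0, 32.8, 41.9 and 34.3 CPM in the Synpo+/+ DG controls and at 76.9 to 103 CPM (median 88.4) in the 7 ECL libraries. Every ECL library was above every control, and the log2 fold change was 1.09 ± 0.14 (SE, edgeR adjusted p = 0.00033). In Synpo-/- DG the controls were at 35.3 to 59.5 CPM (median 50.8) and the ECL libraries at 95.7, 92.1, 89.5 and 92.2 CPM, again without overlap (log2 fold change 0.86 ± 0.13, edgeR adjusted p = 0.00072).

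Gja1, the more widespread astrocyte connexin, was at 249, 176, 223 and 221 CPM in Synpo+/+ DG controls and at 281 to 484 CPM (median 447) after ECL. The lowest ECL value was that of replicate 5, the library with high CA3 markers, and it too lay above the controls. The log2 fold change was 0.96 ± 0.15 (edgeR adjusted p = 0.0016), and 1.02 ± 0.10 without that library. Synpo-/- DG controls were at 194 to 278 CPM (median 242) and the ECL libraries at 504, 525, 417 and 401 CPM, with no overlap (log2 fold change 0.95 ± 0.12, edgeR adjusted p = 0.00016).

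Aqp4, the water channel, was at 186, 170.3, 152 and 178 CPM in Synpo+/+ DG controls and at 231 to 372 CPM (median 313) after ECL. Replicate 5 was again the lowest ECL library and above every control (log2 fold change 0.87 ± 0.14, edgeR adjusted p = 0.0013). In Synpo-/- DG, controls of 162 to 216 CPM (median 186) stood below all 4 ECL values of 382, 356, 294 and 303 CPM (log2 fold change 0.82 ± 0.10, edgeR adjusted p = 0.00014).

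Aldh1l1, the folate enzyme, was at 25.8, 24.8, 19.4 and 19.9 CPM in Synpo+/+ DG controls and at 28.2 to 53.3 CPM (median 35.1) after ECL (log2 fold change 0.74 ± 0.15, edgeR adjusted p = 0.0073). In Synpo-/- DG the controls were at 21.6 to 25.5 CPM (median 23.1) and the ECL libraries at 47.7, 42.0, 37.0 and 39.5 CPM (log2 fold change 0.79 ± 0.09, edgeR adjusted p = 6.6e-05). Controls and ECL libraries were apart in both genotypes.

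Aldoc, the aldolase, was at 682, 413, 528 and 519.7 CPM in Synpo+/+ DG controls and at 807 to 1382 CPM (median 918) after ECL. All ECL libraries were above the controls, with replicate 5 the highest, and the log2 fold change was 0.88 ± 0.17 (edgeR adjusted p = 0.0054). In Synpo-/- DG, controls of 494 to 823 CPM (median 650.0) lay below ECL values of 1148, 911, 1024 and 994 CPM (log2 fold change 0.61 ± 0.13, edgeR adjusted p = 0.0074).

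S100b, the calcium-binding protein, had the smallest of the 6 called changes. In Synpo+/+ DG it was at 56.6, 75.9, 53.3 and 58.4 CPM in controls and at 76.2 to 123 CPM (median 86.4) after ECL (log2 fold change 0.56 ± 0.13, edgeR adjusted p = 0.015). Replicate 5, whose oligodendrocyte markers summed to 2922 CPM, was the highest ECL library, and the value without it was 0.46 ± 0.11. In Synpo-/- DG controls of 45.2 to 74.7 CPM (median 63.9) stood against 116, 89.2, 83.4 and 75.0 CPM (log2 fold change 0.50 ± 0.13, edgeR adjusted p = 0.028). The gap between the groups was narrow in both genotypes, at 75.9 against 76.2 CPM and 74.7 against 75.0 CPM. The call was lost in Synpo+/+ DG without control replicate 3 (0.48) or 4 (0.52), in Synpo-/- DG without ECL replicate 1 (0.36), and in both when the trend of fold change with gene length was removed (0.29 and 0.43).

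Sox9, the glial transcription factor, did not overlap between the groups in either genotype and did not pass the edgeR threshold. Synpo+/+ DG controls were at 208, 231, 230.2 and 231 CPM and ECL libraries at 243 to 319 CPM (median 287) (log2 fold change 0.31 ± 0.11, edgeR adjusted p = 0.063). The Synpo-/- controls were at 207 to 252 CPM (median 238) and the ECL libraries at 295, 338, 257 and 295 CPM (log2 fold change 0.30 ± 0.09, edgeR adjusted p = 0.061). Without ECL replicate 5 in Synpo+/+ (0.33 ± 0.09) or ECL replicate 3 in Synpo-/- DG (0.38 ± 0.10) the difference passed. It was also called in Synpo+/+ DG by DESeq2 (0.33), with the replicate number as a block (0.39) and with all groups in 1 fit (0.34), and in Synpo-/- DG with all groups in 1 fit (0.35). With CPM scaled over the libraries of each comparison alone, Sox9 overlapped in both genotypes and S100b in Synpo-/- DG.

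Slc4a4, the bicarbonate cotransporter, differed least. In Synpo+/+ DG it was at 366, 361, 341 and 381 CPM in controls and at 346 to 424 CPM (median 381) after ECL, and in Synpo-/- DG at 329 to 375 CPM (median 352) and 371, 353, 357 and 312 CPM. The groups overlapped, with log2 fold changes of 0.05 ± 0.09 (95% interval -0.14 to 0.23) and -0.05 ± 0.08 (-0.21 to 0.12). Both intervals end below the smallest change called among the other members, 0.50.

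Without replicate 5 of the Synpo+/+ DG ECL group 7 of the 8 members were called, with Gjb6 at 1.11 ± 0.13, Aqp4 at 0.92 ± 0.10, Aldh1l1 at 0.75 ± 0.15, Aldoc at 0.78 ± 0.14 and Slc4a4, not called, at 0.03 ± 0.09. Of all genes 13.8% were then called, 8.46% higher and 5.3% lower.

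**Figure D1:**
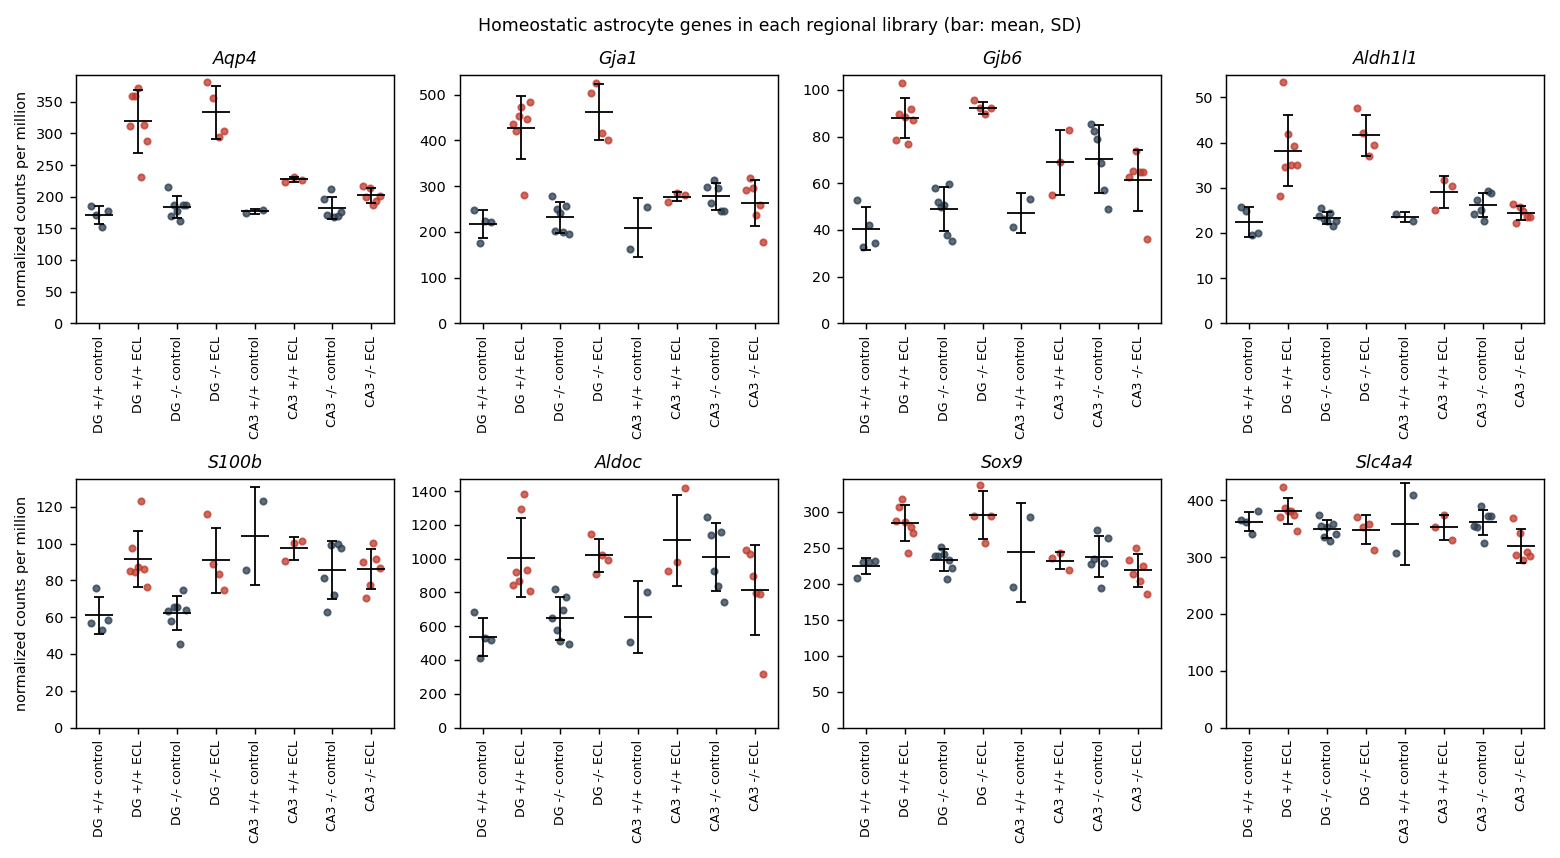
Normalised CPM of the 8 genes (y axis, from 0) in each of 39 regional libraries by area, genotype and lesion (x axis), with control libraries as dark and ECL libraries as red points, and black bars for group means with SD. Gjb6 in Synpo+/+ DG was at 76.9 to 103 CPM after ECL, above controls of 32.8 to 53.0 CPM, whereas the DG groups of Slc4a4 overlap.

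Other genes of the same pathways were counted from lists of each pathway. Of 13 endfoot and dystrophin complex genes tested in Synpo+/+ DG 3 rose (3 of 12 in Synpo-/- DG) and none fell, with median log2 fold changes of 0.36 and 0.27. Kcnj10, the endfoot potassium channel, changed by 1.00 ± 0.14 and 1.00 ± 0.14 in Synpo+/+ and Synpo-/- DG, and Mlc1, an astrocyte membrane protein, by 0.62 ± 0.13 and 0.69 ± 0.10. Of 11 further connexins and junction partners 2 and 3 rose and none fell (medians 0.32 and 0.33), among them the connexins Gjc3 (1.00 ± 0.17 and 0.90 ± 0.24) and Gjb2 (0.89 ± 0.22 and 0.52 ± 0.14). Of 8 S100 proteins besides S100b 7 and 8 rose (medians 0.80 and 0.81), such as S100a6 (1.00 ± 0.11 and 1.11 ± 0.11), S100a11 (1.02 ± 0.15 and 1.05 ± 0.10) and S100a1 (0.75 ± 0.12 and 0.68 ± 0.09).

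Partners of the remaining members were counted in the same way. Besides Aldoc none of 17 glycolysis enzymes rose in either genotype, and 2 fell in Synpo-/- DG, the hexokinase Hk2 (-0.66 ± 0.12) and the isomerase Gpi1 (-0.62 ± 0.16). Their list medians were 0.19 in Synpo+/+ and -0.15 in Synpo-/- DG. Of 11 folate enzymes 1 rose in each genotype (medians 0.07 and 0.04), Tyms, the thymidylate synthase of dividing cells (0.73 ± 0.13 and 0.63 ± 0.11). Among bicarbonate and pH regulators 2 of 15 rose in Synpo+/+ and 3 of 14 in Synpo-/- DG (medians 0.39 and 0.18), including the carbonic anhydrase Car2, which oligodendrocytes also make (0.86 ± 0.14 and 0.83 ± 0.11), and the lactate transporter Slc16a1 (0.57 ± 0.10 and 0.54 ± 0.09). Of 15 gliogenic transcription factors 3 rose in each genotype (medians 0.33 and 0.34), with Sox21 at 1.01 ± 0.20 and 1.25 ± 0.17.

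Broader astrocyte lists moved upward as well. Of 24 further astrocyte markers 6 rose in Synpo+/+ and 8 in Synpo-/- DG and none fell, with median log2 fold changes of 0.26 and 0.28. Among these were Clu, a secreted chaperone (0.70 ± 0.12 and 0.55 ± 0.12), Gpr37l1, a receptor of astrocytes (0.70 ± 0.13 and 0.77 ± 0.11), and Slc39a12, a zinc transporter (0.58 ± 0.12 and 0.43 ± 0.11). Of 18 reactive astrocyte genes 10 and 12 rose (medians 0.79 and 0.74), with the intermediate filament genes Gfap at 1.44 ± 0.14 and 1.30 ± 0.12 and Vim at 1.05 ± 0.15 and 1.18 ± 0.09.

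Markers of other cells moved with the lesion too. All 12 microglia markers rose in Synpo+/+ and 10 of 12 in Synpo-/- DG, with C1qa, a complement subunit, at 1.48 ± 0.14 and 1.19 ± 0.14. Their summed level went from 489 to 664 CPM in controls to 1236 to 1585 CPM after ECL in Synpo+/+ DG and from 582 to 1262 CPM to 1270 to 1745 CPM in Synpo-/- DG. Of 6 proliferation markers 5 and 4 rose, of 6 oligodendrocyte precursor markers 3 and 3, of 7 ependymal and choroid markers 2 and 4, and of 11 oligodendrocyte markers 1 and 1. None of 8 granule cell, 9 CA3 pyramidal cell or 9 pan-neuronal markers passed in either genotype. The part of these cells in the members' values was not tested. Without replicate 5 of the Synpo+/+ ECL group, a step chosen after seeing the data, 9 of 24 further astrocyte markers, 13 of 18 reactive astrocyte genes, 3 of 13 endfoot genes, 3 of 11 connexins and junction partners, 7 of 8 S100 proteins, 3 of 15 gliogenic factors, 1 of 11 folate enzymes and 3 of 15 bicarbonate and pH regulators rose in Synpo+/+ DG. There 1 bicarbonate and pH regulator and 1 of 17 glycolysis enzymes fell. Of the other cell types 12 of 12 microglia, 4 of 6 proliferation, 3 of 6 oligodendrocyte precursor, 4 of 7 ependymal and choroid, 2 of 11 oligodendrocyte and 2 of 8 granule cell markers rose without it. Endothelial and pericyte markers went the other way, as 1 of 8 rose and 2 fell without it (median log2 fold change -0.44). Xist exceeded the Y-linked genes in all 4 Synpo+/+ DG controls but in 4 of the 7 ECL libraries. Restricted to libraries of that kind, a step chosen after seeing the data, 6 of 8 genes rose in Synpo+/+ DG and 4 of 8 in Synpo-/- DG, where S100b (0.21) and Aldoc (0.53) no longer passed. The shares of all genes in these restricted fits are not given, so the counts cannot be set against them.

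In CA3, which also receives perforant path fibres, none of the 8 genes passed the edgeR threshold after ECL in either genotype, with 3 members in Synpo+/+ and 1 in Synpo-/- at an unadjusted p under 0.05 and 1 and 0 called by DESeq2, while 1.78% of all genes changed in Synpo+/+ and 0.077% in Synpo-/- CA3. The median log2 fold changes of the 8 genes were 0.23 and -0.10. The Synpo+/+ comparison rested on 2 control and 3 ECL libraries, and in it 5 members did not overlap between the groups, nor did 46.8% of all genes. With CPM scaled over these 5 libraries alone, 2 members (Aqp4 and Aldoc) and 42.9% of all genes did not overlap. Aldoc was at 506 and 804 CPM in controls and at 929, 978 and 1418 CPM after ECL (log2 fold change 0.65 ± 0.21, edgeR adjusted p = 0.11). Gjb6 was at 41.1 and 53.3 against 55.1, 69.3 and 82.9 CPM (0.44 ± 0.17, edgeR adjusted p = 0.16), and Aqp4 at 174 and 179.7 against 224, 232 and 227 CPM (0.26 ± 0.11, edgeR adjusted p = 0.18). The other non-overlapping members were Gja1 and Aldh1l1. Without control replicate 2, which leaves 1 control assumed to vary like the ECL libraries, Aldoc (1.06) and Gja1 (0.70) passed. Of the microglia markers 2 of 12 rose there, with C1qa at 1.06 ± 0.21 and a summed level of 523 to 878 CPM in controls and 1073 to 1441 CPM after ECL, while 1.5% of all genes rose. Of the 17 glycolysis enzymes 4 rose there (median 0.46). The part of either in the members' values was not tested.

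Synpo-/- CA3 had 6 libraries on either side, and all 8 members overlapped. The log2 fold changes ran from -0.31 ± 0.20 (Aldoc) to 0.16 ± 0.08 (Aqp4), with edgeR adjusted p from 0.68 to 0.99. The 95% interval was -0.31 to 0.16 for Gja1 and -0.26 to 0.07 for Aldh1l1, both below the smallest change called in the DG. ECL replicate 6 was the lowest library for Aldoc (318 CPM, the next being 790), Gjb6 (36.1 CPM, next 62.6) and Gja1 (178 CPM, next 238). It was also the lowest of its group in the summed microglia (699 CPM), glycolysis (4819 CPM) and pan-neuronal markers (5656 CPM). Without it none of the 8 passed, with Aldoc at -0.15.

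**Figure D2:**
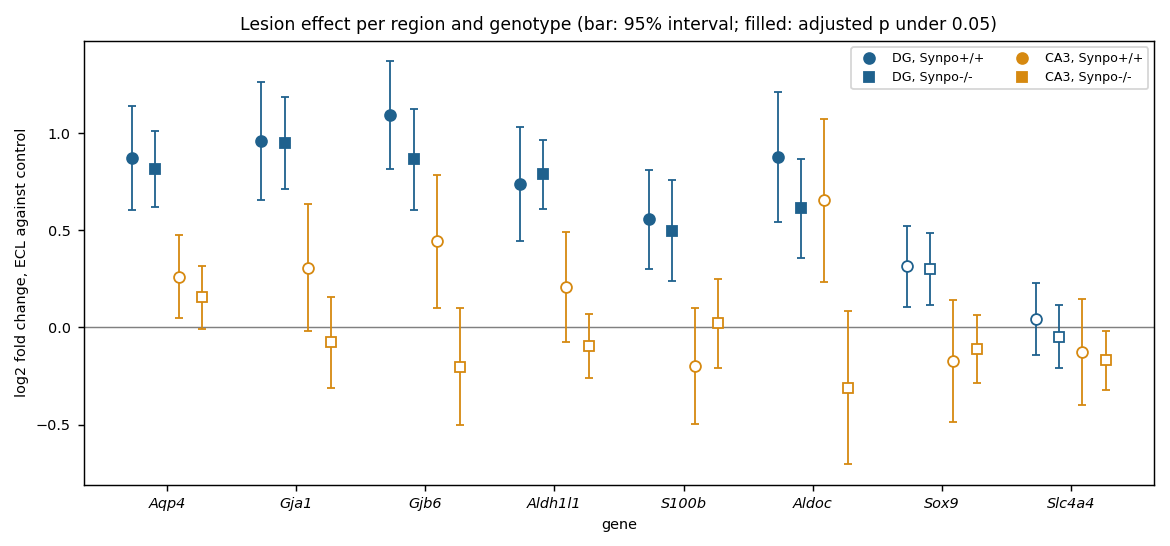
Log2 fold change of ECL against control (y axis) for each gene (x axis), in blue for DG and orange for CA3, with circles for Synpo+/+ and squares for Synpo-/- cultures, bars for 95% intervals and filled symbols for an adjusted p under 0.05. Symbols for 6 genes are filled in the DG of both genotypes, from 0.50 to 1.09, and none is filled in CA3.

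Whether ECL acted differently in the areas was tested as an interaction. In Synpo-/- cultures the ECL effect was larger in the DG than in CA3 for 4 of the 8 genes, while 1.12% of all genes passed and 0.877% in that direction. The difference of log2 fold changes was 1.04 ± 0.23 for Gjb6 (edgeR adjusted p = 0.019) and 1.00 ± 0.18 for Gja1 (edgeR adjusted p = 0.0054). It was 0.87 ± 0.12 for Aldh1l1 (edgeR adjusted p = 0.0012) and 0.64 ± 0.13 for Aqp4 (edgeR adjusted p = 0.013). These 4 genes had log2 fold changes of 0.79 to 0.95 in the DG and of -0.20 to 0.16 in CA3. Aldoc had a difference of 0.89 ± 0.28 that did not pass with edgeR (adjusted p = 0.13) and was called by DESeq2 (0.88). Among genes of the lists the difference was called for Gfap (1.18 ± 0.19), Vim (0.66 ± 0.13), Kcnj10 (0.77 ± 0.18), Mlc1 (0.64 ± 0.14), Gjc3 (1.33 ± 0.29), Gpr37l1 (0.93 ± 0.15) and Sox21 (1.16 ± 0.27). It was also called for 8 of 12 microglia markers, with C1qa at 1.39 ± 0.27.

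In Synpo+/+ cultures edgeR passed 0% of 27783 genes in the same test, with 1240 genes and 5 of the 8 members at an unadjusted p under 0.05, and DESeq2 called 0 members. The member differences ran from 0.13 ± 0.18 (Slc4a4) to 0.71 ± 0.24 (S100b), with Gja1 at 0.60 ± 0.26 (95% interval 0.09 to 1.11). The interval of Gja1 holds the 1.00 measured in Synpo-/- cultures. Without replicate 5 of the DG ECL group no member was called, with Gja1 at 0.68 ± 0.20.

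The genotypes were then compared directly. None of the 8 genes passed the threshold between libraries labelled Synpo-/- and Synpo+/+ in control DG, ECL DG, control CA3 or ECL CA3, where 0.0166%, 0.0166%, 0.00413% and 0.00891% of all genes passed. DESeq2 called no member either, and at an unadjusted p under 0.05 edgeR gave 2 members in control CA3 and 0 in the other 3 comparisons. In control DG the log2 differences lay between -0.08 ± 0.08 (Slc4a4) and 0.25 ± 0.16 (Gjb6), and no 95% interval went beyond -0.25 or 0.57. In ECL DG they lay between -0.15 and 0.10, with intervals within -0.34 and 0.37, and between -0.15 and 0.09, none called, without replicate 5 of the Synpo+/+ group. CA3 gave wider intervals, from -0.68 to 0.96 in control and from -0.91 to 0.26 in ECL cultures. Aqp4 was the only member whose libraries did not overlap between genotypes in any of the 4 comparisons, at 224, 232 and 227 CPM in Synpo+/+ and 187 to 218 CPM (median 199.9) in Synpo-/- CA3 after ECL (log2 difference -0.12 ± 0.10, edgeR adjusted p = 0.88). How many of all genes did not overlap between genotypes was not counted.

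The difference of the ECL effect between genotypes passed the threshold for no member with edgeR or DESeq2, with 0 members at an unadjusted p under 0.05 in the DG and 2 in CA3. In the DG, where 0.00381% of all genes passed, the differences ran from -0.31 to 0.01 and the intervals stayed within -0.76 and 0.36. Without replicate 5 of the Synpo+/+ ECL group the DG differences ran from -0.30 to -0.01, none called. In CA3 edgeR passed 0% of 26821 genes, with 4589 at an unadjusted p under 0.05. The CA3 differences ran from -0.99 ± 0.40 (Aldoc, 95% interval -1.77 to -0.22, edgeR adjusted p = 0.22) to 0.19 ± 0.22 (S100b).

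In control cultures few members differed between DG and CA3. In Synpo+/+ controls S100b was lower in the DG, at 56.6, 75.9, 53.3 and 58.4 CPM against 85.4 and 123 CPM in CA3, where 5.39% of all genes were called and 2.75% lower. It was the only member called and the only one without overlap (log2 difference -0.76 ± 0.17, edgeR adjusted p = 0.018). How many of all genes did not overlap between the areas was not counted. The call was lost without CA3 replicate 2 (-0.48) or DG replicate 1 (-0.71) or 3 (-0.69). In Synpo-/- controls 3 members were lower in the DG, namely Aldoc (-0.54 ± 0.13, edgeR adjusted p = 0.0036), Gjb6 (-0.41 ± 0.14, edgeR adjusted p = 0.041) and S100b (-0.35 ± 0.12, edgeR adjusted p = 0.04), and all 3 overlapped between the areas. There 25.5% of all genes were called and 12.5% lower. The S100b call was lost without CA3 replicate 1, 3, 5 or 6 or DG replicate 1, 2, 3 or 7, and the Gjb6 call without CA3 replicate 1, 2, 3 or 4 or DG replicate 3, 5 or 7. Oligodendrocyte markers moved with S100b, with 8 of 11 lower in the DG in Synpo+/+ and 11 of 11 in Synpo-/- controls (medians -0.95 and -1.27). Their sum was 619 to 1060 CPM in Synpo+/+ DG and 1472 to 2298 CPM in Synpo+/+ CA3 controls, and their part in the S100b value was not tested.

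After ECL several members were higher in the DG than in CA3. In Synpo-/- cultures 5 of 8 were higher, while 13.6% of all genes were called and 7.37% higher. Gja1 (0.82 ± 0.14, edgeR adjusted p = 0.0012), Aldh1l1 (0.78 ± 0.10, edgeR adjusted p = 8.6e-05) and Aqp4 (0.73 ± 0.10, edgeR adjusted p = 0.00018) differed most. Gjb6 (0.61 ± 0.15, edgeR adjusted p = 0.011) and Sox9 (0.45 ± 0.11, edgeR adjusted p = 0.011) followed, and none of the 5 overlapped between the areas. The share of all genes without overlap was not counted for this comparison. The Sox9 call was lost without DG replicate 2 (0.37). Gjb6 had stood at 35.3 to 59.5 CPM in DG and 49.2 to 85.6 CPM in CA3 controls, and stood at 89.5 to 95.7 CPM in DG and 36.1 to 74.0 CPM in CA3 after ECL.

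In Synpo+/+ cultures after ECL 1 of 8 members was higher in the DG, Gja1 (0.70 ± 0.16, edgeR adjusted p = 0.043), while 2.05% of all genes were called and 1.54% higher. Gja1 overlapped between the areas, and Sox9 (0.36 ± 0.12, edgeR adjusted p = 0.11) was the only member that did not, with no count of all genes beside it. Replicate 5 of the DG group, the library with high CA3 markers, entered this comparison. Without it 5 of 8 were called, Gja1 at 0.76 ± 0.09, Aqp4 at 0.60 ± 0.10, Aldh1l1 at 0.46 ± 0.15, Gjb6 at 0.43 ± 0.12 and Sox9 at 0.37 ± 0.10. The share of all genes called in that refit is not given, so these 5 cannot be set against it. Leaving out any other single library of these groups ended the Gja1 call, with values from 0.65 to 0.71.

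Ordered by group mean, the ECL groups of the DG were highest among the 8 regional groups for Aqp4, Gja1, Gjb6, Aldh1l1 and Sox9. Synpo-/- stood just ahead of Synpo+/+ in each of these, at 334 ± 41.9 and 319 ± 49.5 CPM (SD, n = 4 and 7) for Aqp4, and the libraries of these neighbours overlapped. Without replicate 5 the Synpo+/+ mean of Aqp4 was 333.9 ± 33.9 CPM (SD, n = 6), against 333.6 CPM in Synpo-/- DG, so the order of the genotypes was not kept. It was kept for Gja1, Gjb6, Aldh1l1 and Sox9. S100b was highest in Synpo+/+ CA3 controls (104 ± 26.7 CPM, SD, n = 2) and Aldoc in Synpo+/+ CA3 after ECL (1108 ± 269 CPM, SD, n = 3), both overlapping with the group next in order.

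How the 8 genes varied among themselves was described over the 39 regional libraries after removing each group's mean. The 28 pairs had Pearson correlations from -0.10 to 0.70, with a median of 0.30. The points share library depth, composition and the cut of the area, and no test is attached. The highest was that of the connexin genes Gja1 and Gjb6 (0.70), followed by Sox9 with Slc4a4 (0.65) and Gjb6 with Aldoc (0.64). S100b went with few of the others (median 0.12) and had a correlation of 0.50 with the summed oligodendrocyte markers against 0.16 with the summed further astrocyte markers. For the other 7 genes the correlation with the astrocyte sum ran from 0.42 (Sox9) to 0.70 (Aldoc). Aldoc had 0.75 with the summed reactive astrocyte genes, 0.73 with the summed microglia markers and 0.69 with the summed pan-neuronal markers, and Gjb6 had 0.71 with the microglia sum. Over the 38 libraries without replicate 5 of Synpo+/+ DG after ECL the pairs ran from -0.10 to 0.73 (median 0.32), with Gja1 and Gjb6 at 0.73, Gjb6 and Aldoc at 0.71 and Sox9 and Slc4a4 at 0.68. S100b then had 0.38 with the oligodendrocyte and 0.25 with the astrocyte sum, and its pairs with Aqp4 and Sox9 went from 0.12 to 0.43 and from 0.27 to 0.42.

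**Figure D3:**
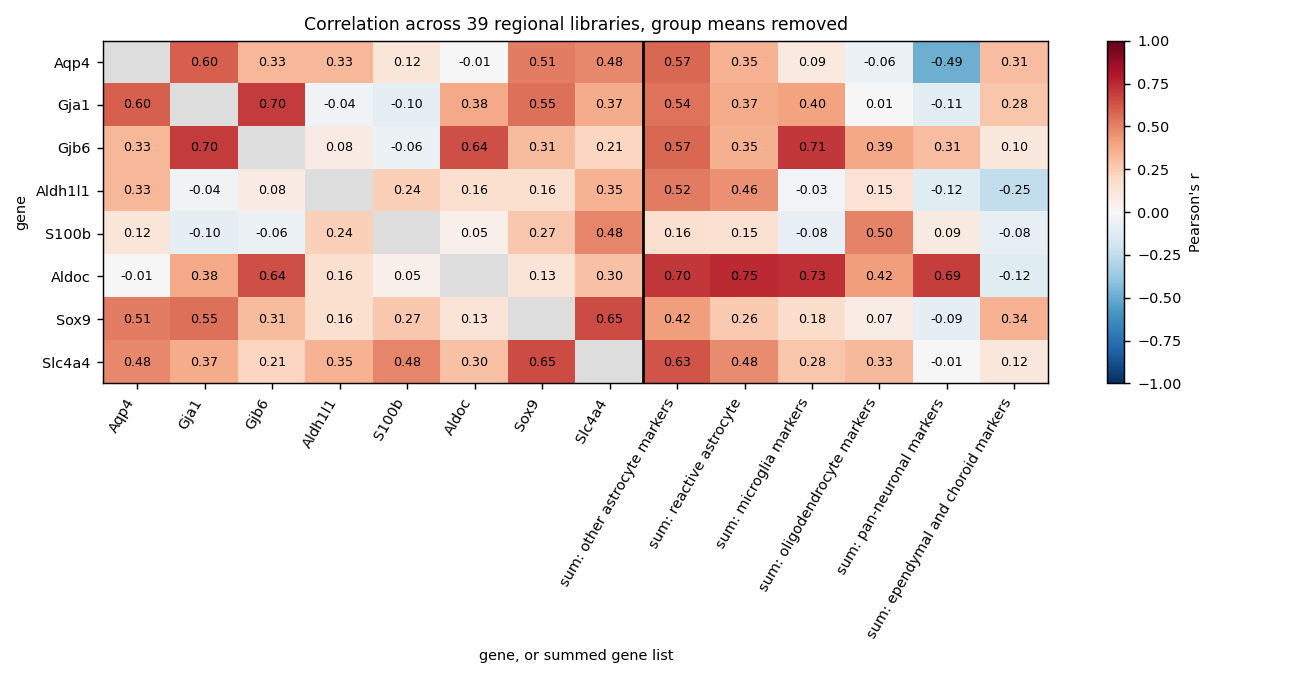
Pearson correlations (colour and printed value) of each gene (y axis) with the other members and with summed gene lists (x axis, lists right of the black line) over 39 regional libraries after removing group means. Gja1 with Gjb6 (0.70) and Sox9 with Slc4a4 (0.65) are the highest member pairs, and the highest list value of S100b is 0.50, with oligodendrocyte markers.

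Among 14244 genes with a mean count over 50, the gene most like Aqp4 in these deviations was Slc1a3, the glutamate transporter GLAST (0.75), ahead of Myo6 (0.74) and Myo10 (0.73). Gja1 was closest to Stxbp4 (0.81), Stag1 (0.80) and Lratd1 (0.79). Gjb6 was closest to Abhd3 (0.90), Slc39a12, the zinc transporter (0.88), and Selenop, the selenium carrier (0.88). Among the genes most like Aldh1l1 were Slc8b1 (0.74) and Oaf (0.73). S100b was closest to Dbi (0.75), S100a13 (0.75) and Ndufa1 (0.73). Aldoc was closest to Ndrg2, a further astrocyte marker (0.94), Emc3 (0.94) and Txn2 (0.93), and its median over all genes was 0.27. Sox9 was closest to Fxyd1 (0.69), Pnp (0.69) and Itgb8 (0.67), and Slc4a4 to Itgb5 (0.70), Slc16a1 (0.69) and Sox9 (0.65). Without replicate 5 of Synpo+/+ DG after ECL 15 of the 24 nearest genes stayed among the nearest 3, and Slc1a3 was at 0.64 with Aqp4.

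The coIP experiment asks which transcripts were more abundant after the pulldown with the synaptopodin antibody than in the lysate it started from. Aldh1l1 and Slc4a4 were higher in the coIP in Synpo+/+ control, Synpo+/+ ECL and Synpo-/- preparations, by 1.61-fold to 1.99-fold. The other 6 members passed in none of these comparisons. The background was large, with 55% of all genes called in Synpo+/+ control (29.6% higher, 25.5% lower), 58.3% in Synpo+/+ ECL (30.5% higher, 27.8% lower) and 31.4% in Synpo-/- preparations (15% higher), so that 2 of 8 higher is near the background of the Synpo+/+ comparisons.

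Aldh1l1 was at 41.3, 54.3, 47.0, 55.7 and 75.0 CPM in the Synpo+/+ control inputs and at 84.7, 82.3, 97.4, 134 and 138 CPM in the coIP libraries of the same lysates. Every coIP library was above every input (log2 fold change 0.99 ± 0.18, edgeR adjusted p = 0.00025). The share of all genes without overlap was not counted for any comparison of coIP with input. After ECL inputs of 97.5, 81.9, 74.8, 63.6 and 66.2 CPM stood below coIP values of 145, 141, 121, 109.6 and 125 CPM, without overlap (0.76 ± 0.12, edgeR adjusted p = 0.00013). In Synpo-/- preparations, labelled as lacking synaptopodin, inputs of 71.1 and 46.8 CPM stood below coIP values of 110.1 and 83.7 CPM (0.68 ± 0.19, edgeR adjusted p = 0.019). This last call was lost without input replicate 2 (0.42) or coIP replicate 1 (0.46).

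Slc4a4 was at 61.3, 80.3, 53.4, 72.4 and 68.2 CPM in the control inputs and at 109, 161, 99.9, 130.4 and 133 CPM in the coIP libraries, again without overlap (log2 fold change 0.93 ± 0.13, edgeR adjusted p = 4e-05). After ECL it was at 90.0, 68.2, 76.6, 54.1 and 82.3 CPM in inputs and at 147, 112, 144, 80.0 and 156 CPM in the coIP, higher in each lysate although the groups overlapped (0.80 ± 0.17, edgeR adjusted p = 0.0012). Synpo-/- inputs were at 82.0 and 61.0 CPM and their coIP libraries at 138 and 119.7 CPM (0.81 ± 0.16, edgeR adjusted p = 0.0027). With the trend of fold change with gene length removed, Slc4a4, the longest of the 8 by exon, was at 0.39 in Synpo+/+ ECL and lost its call there.

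The other 6 members lay between -0.09 ± 0.12 (Aldoc) and 0.15 ± 0.19 (Gja1) in control preparations. In ECL preparations they lay between -0.35 ± 0.22 (Aldoc) and -0.13 ± 0.22 (Sox9). With the lysate as a replicate block 4 of them were lower in the ECL coIP, Aldoc (-0.40 ± 0.14), Gjb6 (-0.38 ± 0.10), Gja1 (-0.32 ± 0.10) and Aqp4 (-0.25 ± 0.09), which made 6 of 8 called, 2 higher and 4 lower, while 62.4% of all genes were called in that fit, 31.8% higher and 30.6% lower. Gjb6 was at 98.7, 62.3, 82.8, 52.9 and 99.4 CPM in these inputs and at 92.9, 39.6, 68.0, 34.5 and 77.6 CPM in the coIP, lower in each of the 5 lysates although the groups overlapped.

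For no member did the coIP difference between preparations labelled Synpo-/- and Synpo+/+ control pass the threshold with edgeR or DESeq2 (0 members at an unadjusted p under 0.05), where edgeR passed 0% of 20621 genes with 1511 at an unadjusted p under 0.05. The difference was -0.26 ± 0.33 for Aldh1l1 (95% interval -0.91 to 0.39) and -0.07 ± 0.25 for Slc4a4 (-0.56 to 0.42). The 4 Synpo-/- libraries held 42886994 to 53682143 counts and the Synpo+/+ ones 11601154 to 29014397, so genotype and sequencing depth cannot be told apart there. Nor did a member pass between ECL and control preparations with either tool (0 members at an unadjusted p under 0.05, edgeR 0% of 19581 genes, 434 of them at such a p), with differences from -0.40 ± 0.31 (Gja1) to -0.09 ± 0.24 (Slc4a4).

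**Figure D4:**
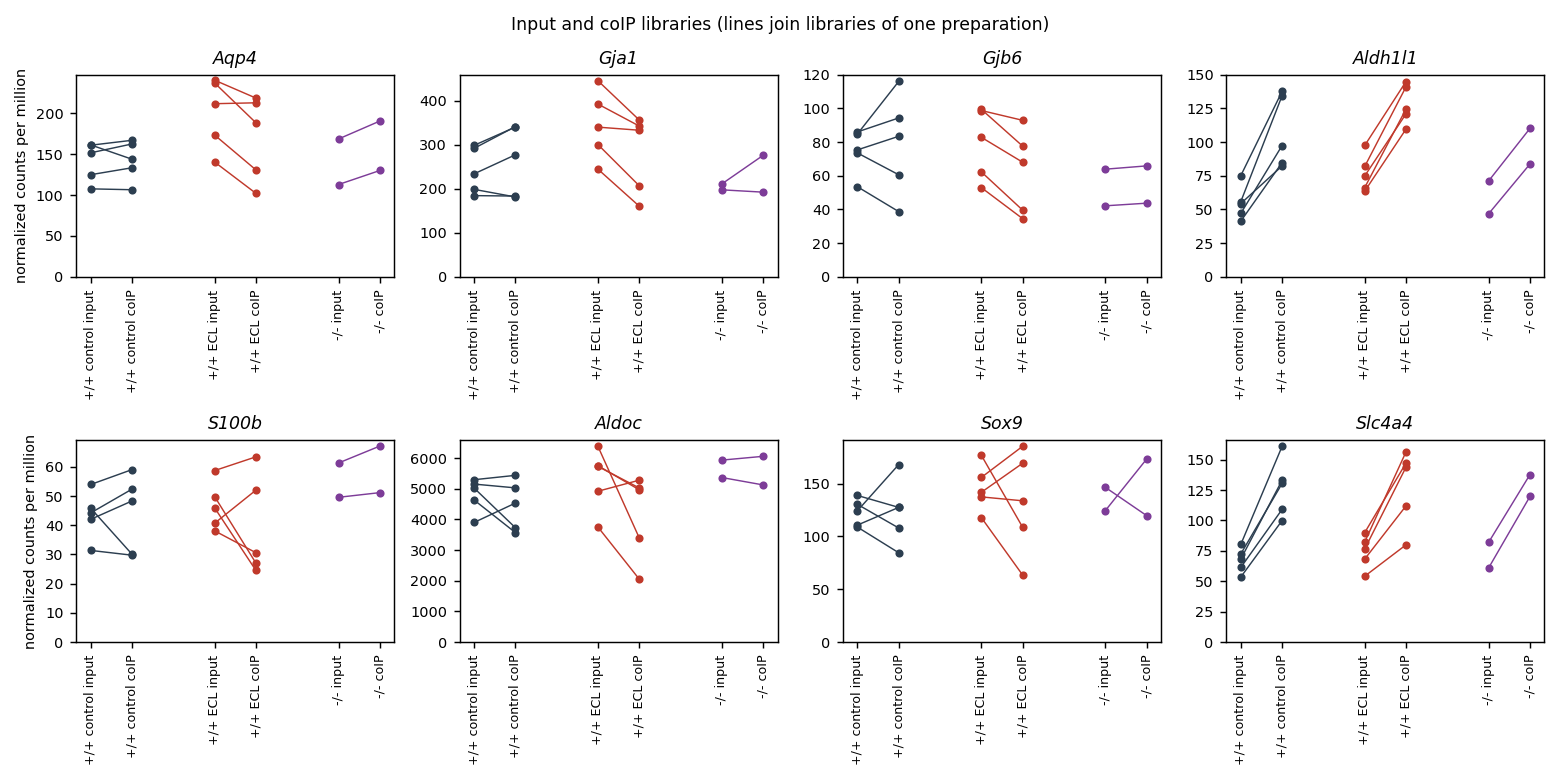
Normalised CPM (y axis, from 0) of the 8 genes in input and coIP libraries (x axis) of Synpo+/+ control (dark), Synpo+/+ ECL (red) and Synpo-/- preparations (purple), each line joining the libraries of 1 preparation number. Every line rises for Aldh1l1 and Slc4a4, and the 5 ECL lines fall for Gjb6.

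Genes of the same pathways went in both directions in the coIP. Of 13 bicarbonate and pH regulators 7 were higher and 2 lower in Synpo+/+ control preparations (median log2 fold change 0.43), and 6 and 2 after ECL. Among them were the anion exchangers Slc4a3 (1.00 ± 0.11 in control and 1.24 ± 0.15 in ECL preparations) and Slc4a2 (0.77 ± 0.13 and 1.11 ± 0.13), which were also higher in Synpo-/- preparations (0.72 ± 0.15 and 0.68 ± 0.18). Of 11 folate enzymes 5 were higher and 3 lower in control and 5 and 4 in ECL preparations. Of 17 glycolysis enzymes 4 were higher and 8 lower in either, the latter including the isomerase Tpi1 (-1.05 ± 0.13 and -1.22 ± 0.13) and Aldoa, the sister aldolase of Aldoc (-0.69 ± 0.09 and -0.88 ± 0.12). Of 23 further astrocyte markers 14 were higher in control and 8 in ECL preparations and none lower (medians 0.38 and 0.19). Fgfr3, a growth factor receptor, was at 1.05 ± 0.15 and 0.90 ± 0.21 and was also called in Synpo-/- preparations (1.05 ± 0.25). Of 7 S100 proteins 6 were lower in either, such as S100a11 (-0.86 ± 0.18 and -1.12 ± 0.18), which was at -0.09 in control preparations once the gene length trend was removed.

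In whole-culture inputs ECL changed none of the 8 genes past the edgeR threshold, with 4 at an unadjusted p under 0.05, while 5.61% of all genes were called. The largest differences were those of Gja1 (0.51 ± 0.16, edgeR adjusted p = 0.09), Aqp4 (0.50 ± 0.15, edgeR adjusted p = 0.063) and Aldh1l1 (0.48 ± 0.15, edgeR adjusted p = 0.072), and these 3 were called with DESeq2 or without a filter on low counts. Aqp4 was at 125, 161, 108, 152 and 161 CPM in control and at 241, 173, 237, 140.4 and 212 CPM in ECL inputs, where replicate 4 alone lay within the control range. Without ECL replicate 4, Aqp4 (0.60) and Gja1 (0.60) passed, and without control replicate 5, Aldh1l1 (0.62). Called in the inputs were Kcnj10 (0.54 ± 0.13), Gfap (0.51 ± 0.13), Vim (0.55 ± 0.10) and C1qa (0.76 ± 0.15), with 5 of 12 microglia markers and 6 of 6 proliferation markers higher against 2.45% of all genes. Among coIP libraries none of the 8 passed with edgeR or DESeq2 (0 at an unadjusted p under 0.05), with 0.314% of all genes called and member differences from -0.32 ± 0.29 (Gjb6) to 0.27 ± 0.15 (Aldh1l1).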

How the data were processed

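Each of 63 samples has 1 table of read counts per gene symbol. Per the labels and the study's methods, trimming by the authors used cutadapt 3.5, mapping to mm10 used STAR 2.7.8a, and exon reads were counted without strand by featureCounts 2.0.1 over the GENCODE M25 models of GRCm38. The deposited counts are raw and were used as they are. Regional libraries were amplified from 1 cut area of 1 culture, so p-values measure the spread between cultures, and between pooled lysates in the coIP experiment. The labels do not say which cultures share an animal.

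Each comparison was fitted on its own groups across all genes with edgeR 4.0.16 in R 4.3.3 (filterByExpr, TMM, quasi-likelihood F-test), adjusted by Benjamini-Hochberg and called at 0.05. The SE is the log2 fold change over the root of F. The steps were tested on simulated counts with changes larger than those of the members. For ECL in Synpo+/+ DG 199 of 200 changed genes were called, at a median absolute log2 fold change of 2.02. Changes as small as those of the members were not simulated. Alternatives were DESeq2 1.42.0, no filter on low counts, RLE size factors, all groups in 1 fit, a removed gene length trend, a mean normalised count over 300, a replicate block, and leaving out each library. Same-numbered coIP and input libraries were taken to be 1 lysate. In Synpo+/+ they deviated together from their group means at r of 0.30 to 0.65 (control) and 0.15 to 0.64 (ECL). For Synpo-/- the preparation numbers and the replicate numbers of the labels cross, and the preparation numbers were used. With 2 libraries per group the Synpo-/- pairs give a single r, 0.09, which does not settle that choice.

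The 8 genes and the gene lists were chosen with earlier results of these data known. Also named are Synpo, the 3 genes most correlated with each member, up to 4 called genes per list, direction and comparison by smallest p, and reference markers (Gfap, Vim, Slc1a2, Glul, Kcnj10, Mbp, Prox1 and C1qa). Some genes that this rule names are not reported here. A fit of the libraries in which Xist exceeded the Y-linked genes, and the gene lists, group means and correlations without replicate 5 of Synpo+/+ DG after ECL, were chosen after seeing the data.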

Additional observations from a re-analysis of the deposited data

Results flagged for a closer look

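In 4 of 80 member and group combinations 1 library stood apart from the rest of its group by Dixon's criterion, which chance does in about 1 of 20. Gja1 was at 281 CPM in replicate 5 of Synpo+/+ DG after ECL, the next library being at 421 CPM. Gjb6 (36.1 CPM, next 62.6) and Aldoc (318 CPM, next 790) were low in the same library, replicate 6 of Synpo-/- CA3 after ECL. Sox9 was at 208 CPM in replicate 1 of Synpo+/+ DG controls, where the others lay between 230 and 231 CPM.

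The ECL effect differed between DG and CA3 of Synpo-/- cultures by the interaction test for Gjb6 (1.04 on the log2 scale), Gja1 (1.00), Aldh1l1 (0.87) and Aqp4 (0.64), in each case with the larger change in the DG.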

How the results depend on the processing

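Of the member results past the threshold, none changed direction under any alternative, and 224 of 236 kept their side of it under other settings and 344 of 377 when 1 library was left out. Of the member results not past it, 35 of 1084 passed under other settings and 12 of 1807 without 1 library. The limit on the mean normalised count is among these settings. It reuses the main fit and changed no member call, so its part of the agreement is not a separate check. The number of the 8 members called moved by more than 1.5 times as follows. Without a filter on low counts it was 2 for ECL in Synpo+/+ CA3, 2 for Synpo+/+ DG against CA3 after ECL, 2 for genotype in control CA3 and 3 for ECL in inputs. Over all genes 1825 were then higher and 891 lower of 47901 for ECL in Synpo+/+ CA3, and 734 and 456 of 50541 for DG against CA3. For genotype these were 697 and 325 of 49947, and for ECL in inputs 458 and 690 of 34705. With DESeq2 the number of members was 1 for ECL in Synpo+/+ CA3, 2 for Synpo+/+ DG against CA3 after ECL and 3 for ECL in inputs. Over all genes 1303 were then higher and 154 lower of 16326 for ECL in Synpo+/+ CA3. For DG against CA3 these were 847 and 513 of 20161, and for ECL in inputs 745 and 931 of 17209. With all groups in 1 fit the number of members was 2 for Synpo+/+ DG against CA3 after ECL and 1 for the Synpo-/- coIP. Over all genes 890 were then higher and 1146 lower of 30550, and 2579 and 2482 of 21591. With the gene length trend removed the number of members was 2 for Synpo+/+ DG against CA3 after ECL and 1 for Synpo-/- DG against CA3 in controls. Over all genes 481 were then higher and 248 lower of 24029, and 2903 and 2721 of 21408. With the replicate number as a block the number of members was 0 for Synpo+/+ DG against CA3 in controls, 5 for Synpo+/+ DG against CA3 after ECL, 3 for genotype in control CA3 and 6 for the Synpo+/+ ECL coIP. Over all genes 407 were then higher and 285 lower of 25656 for DG against CA3 in controls, and 2071 and 2928 of 24029 after ECL. For genotype these were 1521 and 711 of 24203, and for the coIP 5804 and 5572 of 18229. In the libraries where Xist exceeded the Y-linked genes, chosen after seeing the data, the number of members was 2 for ECL in Synpo+/+ CA3. The share of all genes in that fit is not given. The cause of these moves was not tested. Smaller moves were, for ECL in Synpo+/+ DG, 7 with DESeq2, all groups in 1 fit or the block, for ECL in Synpo-/- DG, 7 with all groups in 1 fit and 4 with the block, for either, 5 with the length trend removed, and for the area difference in Synpo-/- cultures, 5 with DESeq2 and 3 with the block. With the block ECL called 2190 genes higher and 790 lower of 23720 in Synpo+/+ DG, and 376 and 286 of 23310 in Synpo-/- DG. With all groups in 1 fit these were 2981 and 1267, and 1319 and 408, of 30550. With the length trend removed they were 846 and 1477 of 23720, and 1130 and 951 of 23310. DESeq2 called 2361 genes higher and 1944 lower of 30407 for ECL in Synpo+/+ DG. For the area difference in Synpo-/- cultures it called 444 higher and 233 lower of 16742, and the block 152 and 42 of 25435.

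Leaving out 1 library at a time gave 0 to 2 members for ECL in Synpo+/+ CA3 and in inputs, 0 to 1 for Synpo+/+ DG against CA3 in controls and 0 to 5 after ECL, 1 to 3 for Synpo-/- DG against CA3 in controls, and 1 to 3 for the Synpo-/- coIP. It gave 5 to 7 for ECL in the DG of either genotype. Among these refits the share of all genes is given only for Synpo+/+ DG without ECL replicate 5. Whether same-numbered regional libraries share more than a number is not known. Correlations of their deviations ran from -0.36 to 0.45, and 6 of 39 libraries correlated best with their own number. Between Synpo-/- DG and CA3 controls all 6 pairs were positive (0.05 to 0.45). That comparison was fitted without pairing, and the block called the same 3 members. With the replicate number as a block S100b (0.45) and Aldoc (0.62) lost the ECL call in Synpo-/- DG and Gjb6 (0.83) that of the area difference. Removing the length trend moved the median of all genes from -0.00 to -0.14 for ECL in Synpo+/+ DG. In the coIP it brought S100b (0.60, control) and Gja1 (-0.64, ECL) past the threshold.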
